A study of Mus musculus with 8 samples.

Results

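Jejunal crypts in which Cdx2 had been targeted were compared directly with jejunal crypts in which Smad4 had been targeted, in mice that carried the BRAF-V600E allele in both cases. The comparison used the 2 libraries labelled CDX2KO_BRAF and the 3 libraries labelled SMAD4KO_BRAF, which are 5 of the 8 libraries assigned to a group. Libraries were taken by these labels, and the comparison was chosen with earlier results of these data known. The genotypes were Cdx2 f/f BRAF-V600E f/+ in the first group and Smad4 f/f BRAF-V600E f/+ in the second. The 3 remaining libraries, labelled BRAF and of genotype BRAF-V600E f/+ without either floxed gene, are given beside them as levels. All 3 groups shared the BRAF allele, the Villin-CreER(T2) transgene, in which the villin promoter drives a tamoxifen-dependent Cre recombinase in intestinal epithelium, and tamoxifen on 4 days with harvest 1 day after the last dose. The transgene acts in epithelial cells, so other cells of the crypt preparation keep their alleles. Crypts were released from the jejunum with 3 mM EDTA, passed through a 70 micron filter and sequenced as polyadenylated RNA in bulk with 50 bp single-end reads. Age, sex and strain background were not given in the sources used here. The labels do not state that the libraries came from separate animals, so the p-values below measure the spread between these libraries, which may be technical.

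CDX2 is a homeodomain transcription factor that sets and maintains intestinal identity, and its loss from mouse intestinal epithelium is known for the appearance of stomach genes and the loss of enterocyte genes. SMAD4 is the shared partner of the receptor-activated SMAD proteins, and it carries both BMP and TGF-beta signals to the nucleus. In the intestine, BMP signals are low at the crypt base and high toward the villus, where they favour differentiation, and the Id genes are among their direct targets. BRAF-V600E is a constitutively active kinase upstream of MEK and ERK.

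Expression is given as FPKM, read counts scaled to transcript length and library size, as the authors deposited it. Differences are CDX2KO_BRAF minus SMAD4KO_BRAF on the log2(FPKM + 1) scale, which understates the change of genes with low values. Of 23951 genes, 11737 had an FPKM of at least 1 in 2 or more of the 5 libraries and were tested with limma, with p-values adjusted by the Benjamini-Hochberg method over all of them and a threshold of 0.05. At that threshold 1461 genes differed, which is 12.4% of those tested. Of these, 830 genes were higher in the libraries labelled CDX2KO_BRAF (7.07% of those tested) and 631 were lower (5.38%). Counts of list members given below are to be read beside these shares. The difference exceeded 2 on the log2 scale for 288 called genes, 164 higher and 124 lower, while the median over all tested genes was 0.03 and the quartiles were -0.26 and 0.29. The values of both groups did not overlap for 5605 genes (47.8%), among them all 1461 called genes. The count rested on both libraries labelled CDX2KO_BRAF: without library 0 there were 224 higher and 186 lower genes, and without library 1 there were 118 and 127. Without SMAD4KO_BRAF library 2 the count of higher genes was 467 and that of lower genes 387.

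**Figure D1:**
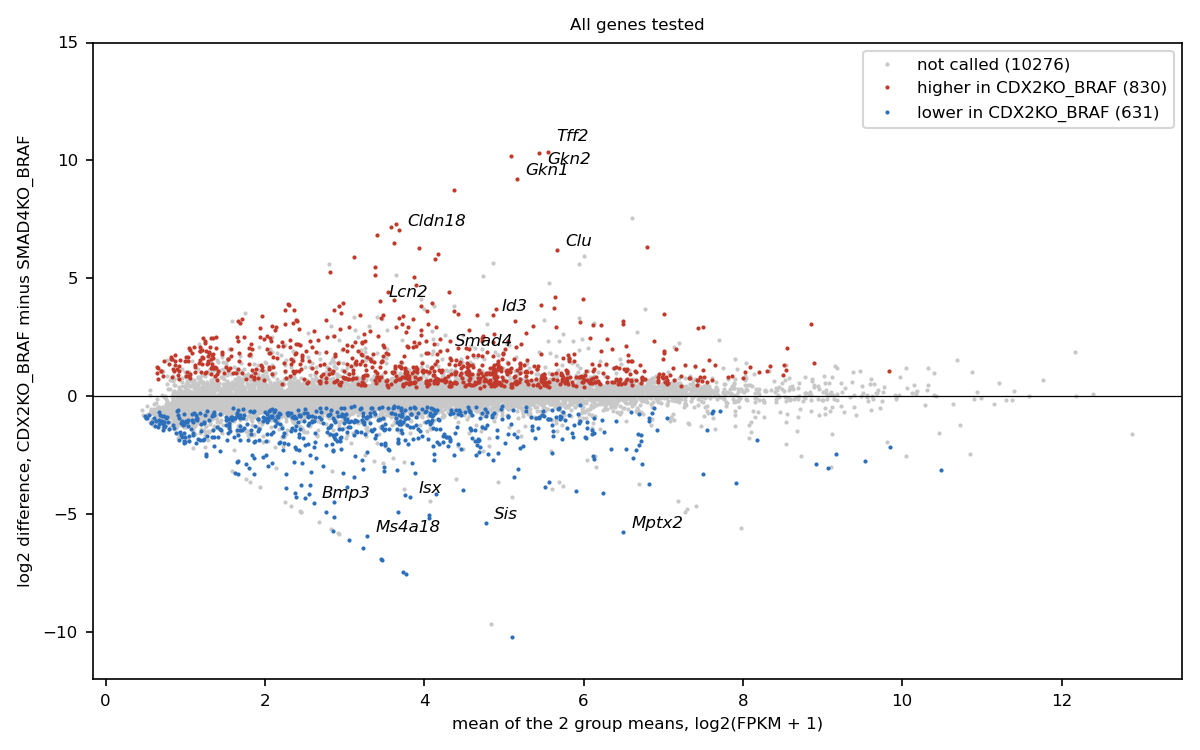
Each point is a tested gene, with the mean level of both groups on the x axis and the log2 difference (CDX2KO_BRAF minus SMAD4KO_BRAF) on the y axis, both from log2(FPKM + 1). The 830 higher genes reach a difference of 10.36 at Tff2, and the 631 lower genes include Ms4a18 and Mptx2 at -5.93 and -5.75; the points below those are symbols of short RNAs such as Snord37, which are not interpreted here.

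The libraries resembled each other within groups more than between them. Pearson's r across the tested genes, which are not independent replicates, was 0.941 between the 2 libraries labelled CDX2KO_BRAF, 0.921 to 0.941 among the 3 labelled SMAD4KO_BRAF and 0.837 to 0.880 across the groups. Depth relative to CDX2KO_BRAF library 0, estimated from the lowest FPKM steps, was 0.736 for CDX2KO_BRAF library 1 and 0.535 to 0.658 for the 3 libraries labelled SMAD4KO_BRAF. Absolute depth was unknown. Differences had a median standard error of 0.22 where the mean FPKM was under 5, 0.17 from 5 to 20, 0.17 from 20 to 100 and 0.22 above 100, so it was smallest at middle levels. The level of Y-linked genes differed between libraries of the same group. Their summed FPKM was 76.9 in SMAD4KO_BRAF library 0 and under 0.07 in the other 4 libraries compared. It was 73.7 in BRAF library 0, 0.0156 in BRAF library 1 and listed at 0 in BRAF library 2. Exact zeros can be failed estimates in this table, since Hmgcs1, an enzyme of cholesterol synthesis used by most cells, is listed at 0 in all 5 libraries, and Dmbt1 is listed at 1148 in CDX2KO_BRAF library 0 and at 0 in library 1. A gene at 0 is therefore described only as listed at 0.

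The targeted genes were read first. Smad4 had an FPKM of 40.1 and 35.3 in the libraries labelled CDX2KO_BRAF and of 10.7, 8.38 and 7.66 in those labelled SMAD4KO_BRAF, with 42.5, 47.0 and 42.4 in the BRAF libraries. It was low in the 3 libraries of its own label and in no other, with a difference of 1.97 ± 0.15 (SE) and a limma adjusted p of 0.000618. Cdx2 had an FPKM of 155 and 121 in the libraries labelled CDX2KO_BRAF, 75.1, 75.1 and 93.1 in those labelled SMAD4KO_BRAF and 64.2, 82.6 and 80.1 in the BRAF libraries. Its level was thus highest in the libraries labelled as its deletion, against what that label leads to, with a difference of 0.76 ± 0.18 (SE) and a limma adjusted p of 0.0345. That call ended without any 1 of the libraries except SMAD4KO_BRAF library 2 and BRAF libraries 0 and 1, with limma adjusted p-values of 0.220 without CDX2KO_BRAF library 0, 0.0867 without library 1, 0.0772 and 0.0779 without SMAD4KO_BRAF libraries 0 and 1 and 0.0604 without BRAF library 2, within a range of 0.0315 to 1 over all alternatives. The FPKM of a whole gene does not separate a floxed exon from the rest of the transcript, so this value checks neither the presence nor the absence of the deletion. Every direction below rests on the label CDX2KO_BRAF. Braf itself had an FPKM of 3.66 to 4.88 in the 5 libraries and did not differ at the threshold (difference -0.15 ± 0.13 SE, limma adjusted p = 0.476).

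**Figure D2:**
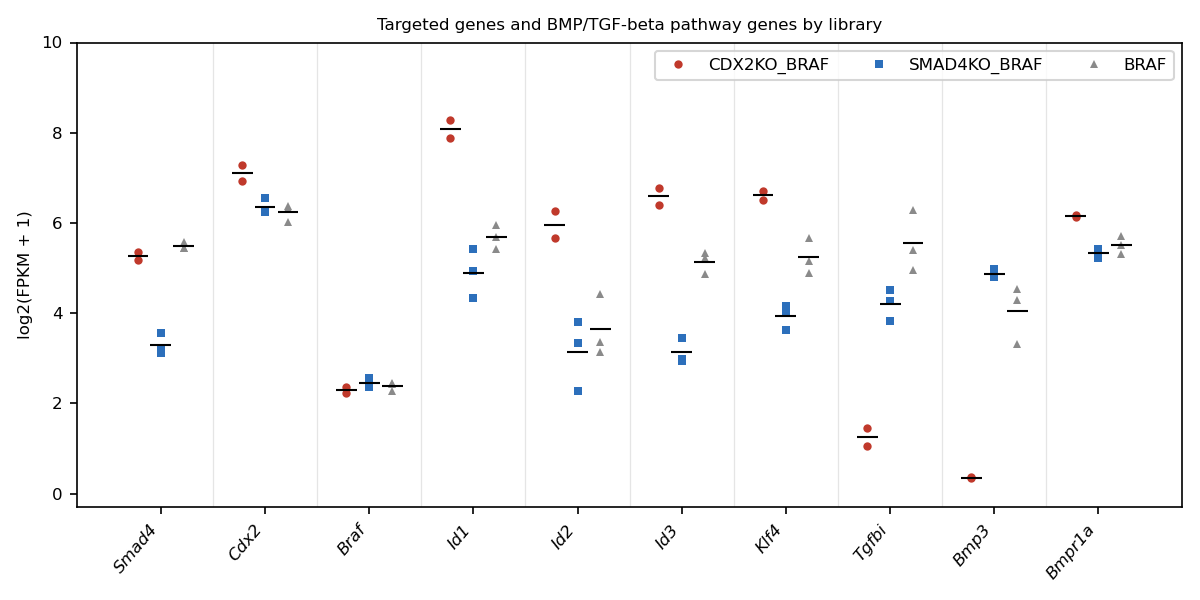
Points are single libraries, lines are group means, and the y axis is log2(FPKM + 1), for the targeted genes and genes of the BMP and TGF-beta pathway. Smad4 is low in the 3 libraries labelled SMAD4KO_BRAF, Cdx2 is highest in the 2 labelled CDX2KO_BRAF, and Id1, Id2, Id3 and Klf4 are high where Tgfbi and Bmp3 are low.

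Genes of the stomach were among the largest differences toward the libraries labelled CDX2KO_BRAF. Tff2, a trefoil peptide of gastric mucous neck cells, had an FPKM of 1256 and 2318 in the libraries labelled CDX2KO_BRAF. In the libraries labelled SMAD4KO_BRAF it stood at 0.34 and 0.632 in libraries 0 and 1 and was listed at 0 in library 2, and it did not exceed 1.37 in the BRAF libraries. Its difference of 10.36 ± 0.37 (SE, limma adjusted p = 1.63e-05) depends on the pseudocount and became 12.39 with a pseudocount of 0.1. Gkn2, a secreted gastrokine of the gastric surface epithelium, had an FPKM of 661 and 3566 against 0.369, 0.328 and a listed 0. Gkn1, its neighbour in the same family, had 391 and 1955 against 0.189, 1.53 and 0.0502. In both gastrokines CDX2KO_BRAF library 1 was several times higher than library 0, and every library labelled CDX2KO_BRAF was far above every library labelled SMAD4KO_BRAF (limma adjusted p = 0.000566 and 0.00185). In bulk RNA, more cells that express a gene and more RNA per cell cannot be told apart.

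Cldn18, a claudin of gastric tight junctions, had an FPKM of 86.7 and 248 in the libraries labelled CDX2KO_BRAF and of at most 0.186 in those labelled SMAD4KO_BRAF (difference 7.06 ± 0.42 SE, limma adjusted p = 0.00023). Pgc, which encodes the protease precursor progastricsin, had 86.0 and 155 against at most 0.523. Sult1c2, a sulfotransferase found in gastric mucosa, had 114 and 156 against at most 0.989. Ctse, the aspartic protease cathepsin E of gastric surface cells, had 29.3 and 126 against at most 1.11. In the libraries labelled SMAD4KO_BRAF none of these 4 genes exceeded 1.11, so the groups were far apart at each of them. Gkn3 differed from them, since the libraries labelled SMAD4KO_BRAF already had an FPKM of 7.06, 18.1 and 8.86, against 129.9 in CDX2KO_BRAF library 0 and 217 in library 1 and 2.05 to 3.28 in the BRAF libraries (difference 3.88 ± 0.39 SE, limma adjusted p = 0.00168).

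Among 17 gastric pit and gastrokine genes, 14 were tested, 10 were higher in the libraries labelled CDX2KO_BRAF and none was lower, with a median difference of 4.96. Of the 14, 5 genes (Gkn2, Psca, Cldn18, Sult1c2 and Dpcr1) entered the test through the libraries labelled CDX2KO_BRAF alone, so the count describes the list and supports nothing by itself. Of 17 gland genes, 6 were tested and the 2 higher genes, Tff2 and Pgc, had entered in the same way. Other stomach genes did not enter the test. Tff1, a trefoil peptide of gastric pit cells, was listed at 0 in all 5 libraries, as was Lipf, the gastric lipase. Muc5ac, the gel-forming mucin of gastric pit cells, was at 0.00435 and 4.02 in the libraries labelled CDX2KO_BRAF and at most 0.0221 in those labelled SMAD4KO_BRAF, so its signal came from 1 library. Atp4b, a subunit of the parietal cell proton pump, was at 0.0279 and a listed 0 in the libraries labelled CDX2KO_BRAF. Without CDX2KO_BRAF library 0 or 1, Gkn2, Psca, Cldn18, Sult1c2 and Dpcr1 missed the filter, and 9 pit genes were tested. Fewer pit genes were called in both fits, in part because fewer were tested. The median difference of the 9 was 4.25 without library 0 and 3.51 without library 1.

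The transcription factors of foregut and stomach differed less. Of 17 listed, 12 were tested, 4 were higher and none was lower, with a median of 0.49. Foxa1, a pioneer factor of endoderm, had an FPKM of 42.9 and 38.6 against 14.6, 17.9 and 14.8, with 10.6 to 13.5 in the BRAF libraries (difference 1.32 ± 0.14 SE, limma adjusted p = 0.00218). It was higher in both libraries labelled CDX2KO_BRAF than in any other library. Sox2 and Barx1, the factors best known for specifying stomach, were listed at 0 in all 5 libraries. Gata4 and Gata6, which act in both stomach and small intestine, had differences of 0.20 and 0.23 and were not called. The 4 calls became 2 without CDX2KO_BRAF library 0 or SMAD4KO_BRAF library 2, and 1 without CDX2KO_BRAF library 1.

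**Figure D3:**
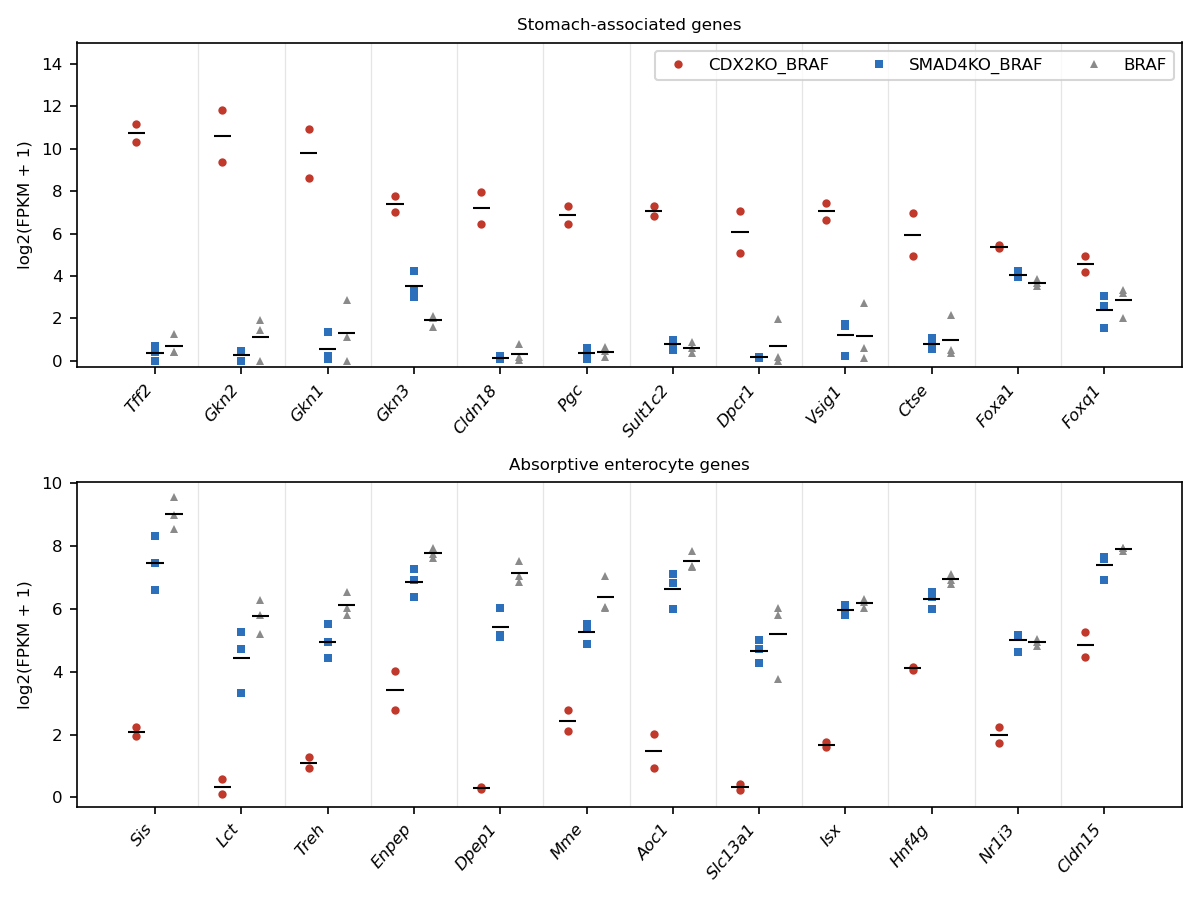
Points are single libraries, lines are group means, and the y axis is log2(FPKM + 1), for stomach-associated genes (top) and absorptive enterocyte genes (bottom). All 12 stomach-associated genes are highest and all 12 enterocyte genes are lowest in the 2 libraries labelled CDX2KO_BRAF. The genes were picked from those called in that direction, so their shared direction follows from the choice. Members such as Tff1, Anpep and Nt5e, described in the text, are not drawn.

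Genes of the absorptive enterocyte were among the large differences in the opposite direction. Because Sis and Lct belong to the lower genes and Gkn2 to the higher ones, the 250 bases before their RefSeq gene starts (build GRCm38.p6, 5′ to 3′) are shown with the letters TTTATG, a core sequence bound by CDX proteins, in capitals on either strand. The windows are chr3:72967864-72968113 on the minus strand for Sis, chr1:128328319-128328568 on the minus strand for Lct and chr6:87373115-87373364 on the plus strand for Gkn2.
Sis: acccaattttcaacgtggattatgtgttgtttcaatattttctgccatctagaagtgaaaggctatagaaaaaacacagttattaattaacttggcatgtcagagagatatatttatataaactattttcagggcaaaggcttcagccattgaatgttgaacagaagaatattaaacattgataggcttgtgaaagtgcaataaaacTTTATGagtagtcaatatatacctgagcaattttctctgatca
Lct: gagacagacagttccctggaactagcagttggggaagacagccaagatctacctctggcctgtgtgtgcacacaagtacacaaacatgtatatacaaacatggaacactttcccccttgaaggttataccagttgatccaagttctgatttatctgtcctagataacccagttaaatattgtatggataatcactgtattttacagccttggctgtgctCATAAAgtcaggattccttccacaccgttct
Gkn2: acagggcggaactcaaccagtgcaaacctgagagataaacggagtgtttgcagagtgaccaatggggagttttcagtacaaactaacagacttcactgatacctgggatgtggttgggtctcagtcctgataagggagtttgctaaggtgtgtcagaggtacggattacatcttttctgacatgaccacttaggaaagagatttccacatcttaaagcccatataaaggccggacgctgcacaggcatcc
The letters occur 1 time in the Sis window and 1 time in the Lct window, where they lie on the opposite strand, and not in the Gkn2 window. Over all 32851 promoter windows of the same length, 10.8% hold them, and 127 of the 182 named genes had a window in the table. Counting each gene once, with a match in any of its windows, the letters occur for 3 of 37 named higher genes, 7 of 44 named lower genes and 3 of 46 named genes that were not called. The share of 10.8% is per window, so genes with several windows have more chances of a match. Lct is not a named gene and is not in this tally. Lower genes without them include Treh, Dpep1, Enpep and Isx, and higher genes with them include Lcn2 and Id2, so the windows shown are examples. A match describes the letters and is not a measured binding site.

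Sis, the sucrase-isomaltase of the brush border, had an FPKM of 3.71 and 2.85 in the libraries labelled CDX2KO_BRAF, 320.4, 96.9 and 173 in those labelled SMAD4KO_BRAF and 755, 368 and 508 in the BRAF libraries. The groups were far apart, although the libraries labelled SMAD4KO_BRAF differed among themselves by more than 3-fold (difference -5.37 ± 0.49 SE, limma adjusted p = 0.00119). Lct, the lactase, had 0.494 and 0.0721 against 37.5, 25.1 and 8.93, with 35.6 to 76.4 in the BRAF libraries. For Lct the limma adjusted p of 0.00566 became 0.0615 without CDX2KO_BRAF library 1, the upper end of a range that starts at 0.00113. Treh, the trehalase, had 1.43 and 0.895 against 44.7, 29.7 and 20.5 (difference -3.86 ± 0.34 SE, limma adjusted p = 0.00103). All 3 disaccharidases were lowest in the libraries labelled CDX2KO_BRAF, and Sis and Treh were highest in the BRAF libraries. The peptidases Dpep1, a dipeptidase, and Enpep, an aminopeptidase, had the same order as Sis and Treh, with 0.213 and 0.243 against 33.3 to 63.7 for Dpep1 and 15.3 and 5.91 against 81.6 to 154 for Enpep. Aoc1, the diamine oxidase that degrades histamine, had 3.04 and 0.909 against 62.9 to 138.

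Of 24 brush border enzymes, 22 were tested, 13 were lower, 1 was higher and the median was -1.76. Lct, Xpnpep2 and Enpp7 had entered the test through the libraries labelled SMAD4KO_BRAF alone. Not all of the enzymes differed: Anpep, the aminopeptidase N, had 632 and 279 against 476, 480.3 and 311 (difference 0.02 ± 0.42 SE, limma adjusted p = 0.98), and Dpp4, a dipeptidyl peptidase, had a difference of -0.49 ± 0.28 (SE, limma adjusted p = 0.279). The enzyme with the opposite sign was Nt5e, the ecto-5′-nucleotidase, with 11.9 and 7.27 against 0.281, 1.45 and 1.93, while the BRAF libraries had 27.3, 36.6 and 15.5. It was the libraries labelled SMAD4KO_BRAF that stood away from the others at Nt5e. The limma adjusted p of Nt5e, 0.0188, became 0.133 and 0.0804 without CDX2KO_BRAF library 0 or 1, in a range of 0.0156 to 0.389. The count of lower enzymes was 9 without CDX2KO_BRAF library 0 and 5 without library 1. Of the structural genes of the microvillus, 3 of 16 tested were lower (Myo7b, Ush1c and Tmigd1) and the median was -0.25. Tmigd1 had entered the test through the libraries labelled SMAD4KO_BRAF alone. No gene of that list was called without CDX2KO_BRAF library 0 or without library 1. Vil1, which encodes villin and whose promoter drives the Cre, had 379.5 and 346 against 522, 353 and 363 (difference -0.16 ± 0.25 SE, limma adjusted p = 0.702).

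Transporters for nutrients were lower as well, with 8 of 22 tested called lower, none higher and a median of -1.09. Of the 22, 4 genes (Slc5a4b, Slc28a1, Slc13a1 and Slc23a1) entered the test through the libraries labelled SMAD4KO_BRAF alone, and 3 of the 8 calls came from them. Slc13a1, the sodium-sulfate cotransporter, had 0.187 and 0.347 against 25.5, 30.9 and 18.6, a gap much wider than the spread in either group. For Slc13a1 the limma adjusted p of 0.00655 was 0.0531 and 0.0605 without CDX2KO_BRAF library 0 or 1, in a range of 0.00038 to 0.0605. The list had 2 lower genes without library 0 and none without library 1, at a similar median of -1.49 and -0.92. Abcb1a, the drug efflux pump P-glycoprotein, had 6.45 and 3.26 against 120.3, 75.4 and 74.1 (difference -3.98 ± 0.32 SE, limma adjusted p = 0.000755). Cldn15, a claudin that forms sodium pores in the intestine, had 37.2 and 21.1 against 191, 119.6 and 201 (difference -2.53 ± 0.29 SE, limma adjusted p = 0.00275), the reverse of the gastric claudin Cldn18. Genes of fat absorption were mostly not called, with 3 of 26 lower (Abcg5, Abcg8 and Cd36), 1 higher (Scarb1) and a median of -0.33. That list had 2 lower genes and a median of -0.69 without CDX2KO_BRAF library 0, and no call without library 1, where the median was close to 0. Apob, the structural protein of chylomicrons, had a difference of 0.09 ± 0.57 (SE, limma adjusted p = 0.933).

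Several genes with little known role in absorption were among the 15 largest lower differences. Ms4a18, a member of the membrane-spanning 4-domain family, had 0.0947 and 0.422 against 90.1, 53.4 and 88.4, and 89.1 to 99.1 in the BRAF libraries (difference -5.93 ± 0.24 SE, limma adjusted p = 3.04e-05). Mgat4c, a glycosyltransferase, had 0.433 and 0.0741 against 25.6 to 47.2. Both were at a similar level in the libraries labelled SMAD4KO_BRAF and BRAF and near 0 in those labelled CDX2KO_BRAF. H2-T3, a non-classical MHC class I gene with close relatives that short reads may not separate, had 0.252 and 0.575 against 16.4 to 28.8. Gp1bb, a platelet glycoprotein gene that lies next to Sept5 on the same strand so that reads may be shared, had 1.96 and 1.86 against 67.9 to 149.

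The intestinal transcription factors were called in both directions. Of 25 tested, 6 were lower and 2 were higher, beside 5.38% lower and 7.07% higher over all genes tested. The median was -0.06. Isx, an intestine-specific homeobox factor that restrains vitamin A uptake, had an FPKM of 2.03 and 2.37 against 68.9, 61.1 and 55.5, with 63.6 to 79.4 in the BRAF libraries (difference -4.29 ± 0.14 SE, limma adjusted p = 1.22e-05). The values within each group of Isx lay close together, and the standard error was among the smallest of the named genes. Hnf4g, an enterocyte nuclear receptor, had 15.7 and 16.8 against 92.7, 62.4 and 81.3 (difference -2.19 ± 0.18 SE, limma adjusted p = 0.000851). Nr1i3, the xenobiotic receptor CAR, had 3.76 and 2.29 against 35.2, 23.8 and 35.1 (difference -3.01 ± 0.22 SE, limma adjusted p = 0.000538). Cdx1, a relative of Cdx2 in the intestinal epithelium, had a difference of -0.06 and was not called. The 2 higher factors were Cdx2 and Klf4. Without CDX2KO_BRAF library 0 or 1 the list held 3 lower genes and 1 higher gene in each case.

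Genes that read out BMP and TGF-beta signals did not move in 1 direction. Id3, an inhibitor of bHLH transcription factors and a direct BMP target, had an FPKM of 108 and 83.8 in the libraries labelled CDX2KO_BRAF, 6.74, 6.95 and 9.97 in those labelled SMAD4KO_BRAF and 39.3, 36.1 and 28.4 in the BRAF libraries. The BRAF libraries lay between both groups without overlap (difference between the deletions 3.46 ± 0.21 SE, limma adjusted p = 0.000244). Id1, of the same family, had 312 and 235 against 41.9, 19.3 and 29.6, with 41.9 to 60.8 in the BRAF libraries (difference 3.19 ± 0.32 SE, limma adjusted p = 0.00166). Id2 had 75.4 and 50.1 against 3.85, 9.20 and 13.0, with 7.75, 20.6 and 9.33 in the BRAF libraries, so the libraries labelled SMAD4KO_BRAF and BRAF overlapped. The call of Id2 rested on both libraries, since the limma adjusted p of 0.0155 became 0.113 and 0.0808 without CDX2KO_BRAF library 0 or 1, in a range of 0.00859 to 0.228. Klf4, a zinc-finger factor of differentiated epithelium, had 90.7 and 104 against 16.9, 14.9 and 11.4, with the BRAF libraries between at 28.8 to 49.8 (difference 2.68 ± 0.25 SE, limma adjusted p = 0.00119).

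Tgfbi, a TGF-beta-induced matrix protein, went the other way. It had an FPKM of 1.07 and 1.74 in the libraries labelled CDX2KO_BRAF, 21.8, 13.3 and 18.3 in those labelled SMAD4KO_BRAF and 41.5, 30.2 and 77.1 in the BRAF libraries (difference -2.95 ± 0.38 SE, limma adjusted p = 0.00429). Both deletions had less Tgfbi than any BRAF library, and the libraries labelled CDX2KO_BRAF had the least. In all, 12 of 22 listed target genes were tested, 3 were higher (Id1, Id2 and Id3), 2 were lower (Tgfbi and Skil) and the median was -0.03. Without CDX2KO_BRAF library 0 or 1 the list held 2 higher genes and 1 lower gene in each case. Smad7, an inhibitory SMAD that BMP and TGF-beta induce, had a difference of -0.42 ± 0.22 (SE, limma adjusted p = 0.25). Smad6, the other inhibitory SMAD, was below the test's minimum, with 4.39 and 0.813 in the libraries labelled CDX2KO_BRAF and 0.114 to 0.399 in those labelled SMAD4KO_BRAF. Msx2 was listed at 0 in all 5 libraries.

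Among ligands, receptors and SMAD proteins, 21 of 30 listed genes were tested, and the 4 that differed were Smad4, Bmpr1a and Tgfa, which were higher, and Bmp3, which was lower, with a median of 0.30. Without CDX2KO_BRAF library 0 or 1 the list held 1 higher and 1 lower gene. Tgfa, a ligand of the EGF receptor and not of the TGF-beta receptors, had a limma adjusted p of 0.0152 that became 0.0790 and 0.111 without those libraries, in a range of 0.00474 to 1. Bmp3 entered the test through the libraries labelled SMAD4KO_BRAF alone. Bmp3, a ligand of the BMP family that opposes the other BMPs, had 0.267 and 0.293 against 30.5, 27.6 and 26.7, with the BRAF libraries between at 18.5, 8.96 and 22.2 (difference -4.51 ± 0.32 SE, limma adjusted p = 0.000501). The values of both groups were tight, and the gene was nearly absent from the libraries labelled CDX2KO_BRAF. Bmpr1a, a type I BMP receptor, had 68.8 and 71.7 against 39.2, 42.2 and 36.2, with a limma adjusted p of 0.0111 that became 0.0707 and 0.0916 without CDX2KO_BRAF library 0 or 1, in a range of 0.00389 to 1. The receptor-activated SMAD genes Smad1, Smad2, Smad3 and Smad5 had differences of 0.25, 0.06, 0.47 and -0.61 and were not called.

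Interferon response genes were higher in the libraries labelled CDX2KO_BRAF, with 19 of 26 tested called higher, none lower and a median of 2.50. Of these 19, Ifit2 entered the test through the libraries labelled CDX2KO_BRAF alone. Slfn2, a Schlafen protein induced by interferon, had an FPKM of 105 and 106 against 8.94, 5.48 and 7.95, and 9.76 to 12.6 in the BRAF libraries (difference 3.68 ± 0.20 SE, limma adjusted p = 0.000137); it was outside that list and among the genes whose BRAF libraries lay between both groups. Ifi44, an interferon-induced protein of the list, had 67.1 and 37.0 against 2.66, 0.843 and 2.92, with 4.20 to 5.01 in the BRAF libraries (difference 4.09 ± 0.37 SE, limma adjusted p = 0.0011). Oasl2, an oligoadenylate synthetase-like protein, had 109 and 121 against 14.5, 16.8 and 10.3, with 22.7 to 34.8 in the BRAF libraries. Gbp3, a guanylate-binding protein, had 13.1 and 14.0 against 0.501, 0.751 and 2.04. For each of these 4 genes the lowest library labelled CDX2KO_BRAF was above the highest library of both other groups. Irf7, a transcription factor that amplifies the interferon response, had 242 and 185 against 32.4, 27.4 and 17.7, and Ddx58, the RNA sensor RIG-I, had 29.6 and 28.0 against 9.26 to 10.4.

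Isg15, a ubiquitin-like protein and a standard reporter of interferon signalling, had 184 and 179 against 16.5, 19.4 and 5.89, with 23.9 to 90.5 in the BRAF libraries. Its limma adjusted p of 0.0101 became 0.0707 and 0.0804 without CDX2KO_BRAF library 0 or 1, in a range of 0.00375 to 0.0914. Its RefSeq promoter (GRCm38.p6, chr4:156200819-156201068, minus strand, the 250 bases before the gene start) is shown because it holds the letters AANNGAAA, the core sequence bound by interferon regulatory factors such as Irf7, in capitals on either strand.
Isg15: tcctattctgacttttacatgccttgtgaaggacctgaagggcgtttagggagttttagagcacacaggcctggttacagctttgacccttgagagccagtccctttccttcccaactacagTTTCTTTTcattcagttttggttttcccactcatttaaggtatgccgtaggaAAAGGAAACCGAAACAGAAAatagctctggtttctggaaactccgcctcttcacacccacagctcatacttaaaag
The letters match at 4 places in the Isg15 window, and 21.3% of all windows of this length hold at least 1 match. Of the 5 named interferon genes with a window, 4 hold the letters (Isg15, Ifi44, Gbp3 and Ddx58) and Oasl2 does not. Over all named genes, with a match in any window of a gene, they occur for 14 of 37 higher, 15 of 44 lower and 7 of 46 not called. The interferon list held 11 higher genes without CDX2KO_BRAF library 0 and 9 without library 1. MHC class II genes, which interferon-gamma induces, were not called in any of 7 tested members (limma, 0 at an unadjusted p under 0.05), at a median of 0.81. Their summed FPKM was 567 and 721 against 223, 70.8 and 1015, with 134, 978 and 31.3 in the BRAF libraries. With that spread, the absence of calls cannot decide whether these genes differed.

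Markers of other cells that a crypt preparation can hold were read beside these genes. Of 16 T cell and intraepithelial lymphocyte genes tested, none was called by limma, none had an unadjusted p under 0.05, and the median was -1.57, toward the libraries labelled SMAD4KO_BRAF. The summed FPKM of the list was 18.0 and 78.3 in the libraries labelled CDX2KO_BRAF and 57.6, 185 and 522 in those labelled SMAD4KO_BRAF, ranges that overlap. Cd3e, a T cell receptor subunit, had 0.301 and 1.96 against 1.08, 6.23 and 14.3. Macrophage and granulocyte genes summed to 24.7 and 32.2 against 22.8 to 60.1, and mesenchyme genes to 4.89 and 22.7 against 13.6 to 55.9. B cell and plasma cell genes summed to 11.4 and 14.6 against 22.5, 30.3 and 38.1, with 24.2, 35.0 and 27.4 in the BRAF libraries. The sums of the groups compared do not overlap, but Blnk alone made up most of each. Of 4 tested genes 1 was lower, which was Blnk, a B cell adaptor. It had 7.21 and 8.84 against 18.3, 24.3 and 21.7 (difference -1.31 ± 0.15 SE, limma adjusted p = 0.00285). Cd79a, a component of the B cell receptor, was at most 1.05 in the 5 libraries. Endothelial and red cell genes summed to 0.575 and 5.65 against 2.59 to 7.71, and pancreatic acinar genes to 25.8 and 29.5 against 21.8 to 33.9, with 1 gene of each list tested and none called. The part of these cells in the results was not tested. Squamous epithelium was checked beside the stomach genes, since mouse forestomach is squamous. Its keratins Krt5, Krt14 and Krt13 were at most 0.957 in the 5 libraries, and Krt6b was listed at 0. The 14 listed squamous genes summed to 30.4 and 43.6 against 7.49, 8.10 and 1.53, which do not overlap. In the BRAF libraries they summed to 38.0, 6.56 and 6.73. Of the list, 2 genes (Sprr1a and Krt15) were tested and none was called, with 1 at an unadjusted limma p under 0.05.

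**Figure D4:**
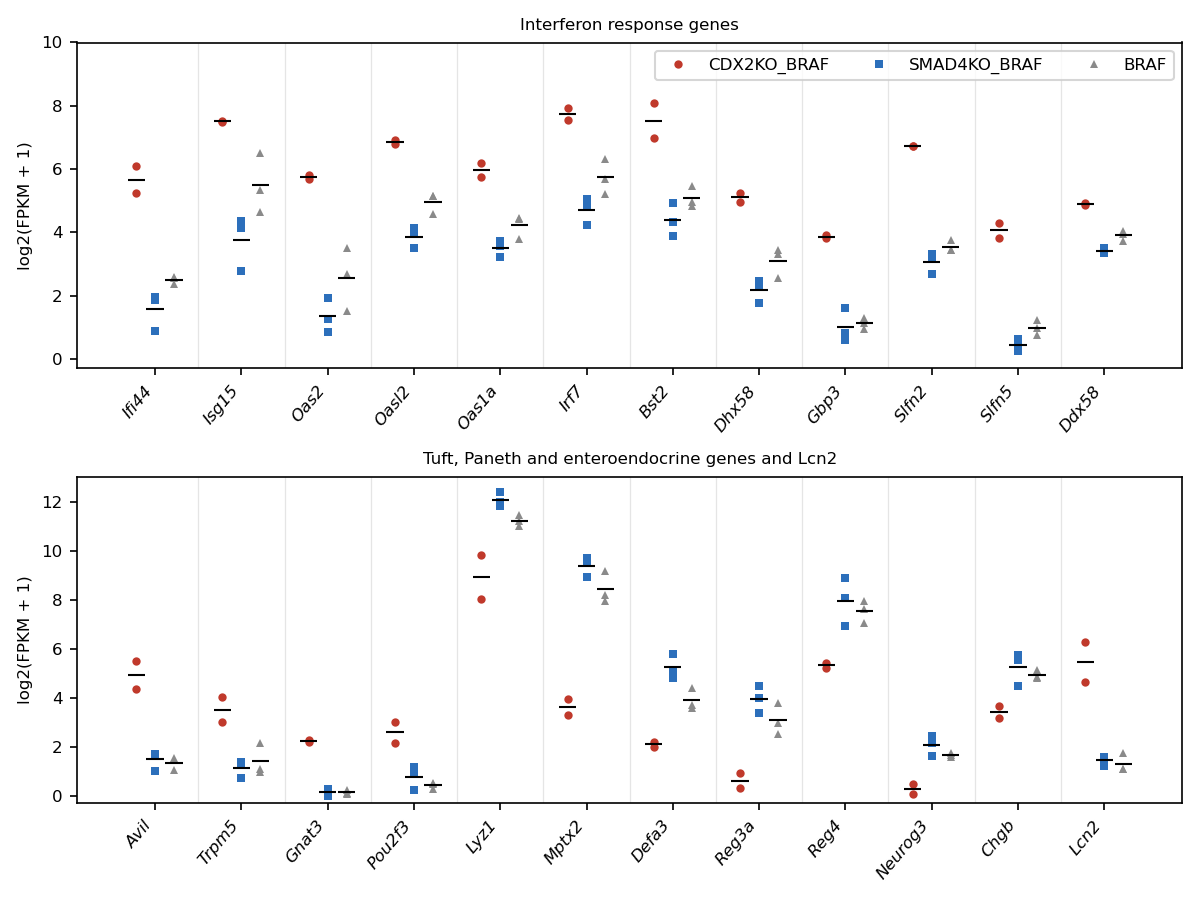
Points are single libraries, lines are group means, and the y axis is log2(FPKM + 1), for interferon response genes (top) and for tuft, Paneth and enteroendocrine genes with Lcn2 (bottom). The interferon and tuft genes shown are highest in the libraries labelled CDX2KO_BRAF, while the Paneth and enteroendocrine genes shown are lowest there. The genes were picked from those called, so the shared direction follows from the choice.

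The secretory lineages of the crypt did not share a direction. Tuft cell genes were higher in the libraries labelled CDX2KO_BRAF, with 8 of 14 tested called, none lower and all 14 differences above 0, at a median of 1.80. Avil, the actin-binding protein advillin of tuft cells, had an FPKM of 19.3 and 44.0 against 2.29, 0.983 and 2.28, with 1.03 to 1.87 in the BRAF libraries (difference 3.44 ± 0.38 SE, limma adjusted p = 0.00229). Gnat3, the taste G protein gustducin, had 3.57 and 3.79 against 0.197, a listed 0 and 0.103 (limma adjusted p = 0.000755). It entered the test through the libraries labelled CDX2KO_BRAF alone. Pou2f3, the master transcription factor of tuft cells, had 3.48 and 7.00 against 0.863, 0.180 and 1.27, and Trpm5, their cation channel, had 6.95 and 15.2 against 1.47, 0.643 and 1.56. In most of these genes CDX2KO_BRAF library 1 was about 2 times library 0. The calls of Pou2f3 and Trpm5 (limma adjusted p = 0.0157 and 0.0159) ended without library 1, at 0.119 and 0.118, in ranges of 0.0109 to 0.653 and 0.0103 to 0.320. Without library 1 the list held 1 higher gene, and without library 0 it held 7.

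Paneth cell genes were lower, with 8 of 20 tested called, none higher and a median of -2.10. Mptx2, a pentraxin of Paneth cells, had an FPKM of 8.79 and 14.5 against 817, 732 and 483, with 246 to 574 in the BRAF libraries (difference -5.75 ± 0.41 SE, limma adjusted p = 0.000501). Lyz1, the Paneth cell lysozyme, had 891 and 259 against 5340.0, 4038 and 3564, with the BRAF libraries between at 2072 to 2786. For Lyz1 the limma adjusted p of 0.0104 became 0.0656 without CDX2KO_BRAF library 1, in a range of 0.007 to 0.123. The alpha-defensin Defa3, an antimicrobial peptide whose family is nearly identical in sequence so that reads may be split among copies, had 3.55 and 2.99 against 33.0, 54.0 and 27.1, with the BRAF libraries between at up to 20.1 (limma adjusted p = 0.00207). Reg3a, an antimicrobial lectin listed under mucosal defence, had 0.237 and 0.874 against 20.9, 9.25 and 14.6. It entered the test through the libraries labelled SMAD4KO_BRAF alone. Lyz1 and Defa3 were therefore ordered CDX2KO_BRAF, BRAF, SMAD4KO_BRAF from low to high without overlap. Mmp7, the matrilysin that activates defensins, had 448 and 216 against 549, 427 and 223 and was not called (difference -0.27 ± 0.49 SE, limma adjusted p = 0.757). The Paneth list held 7 lower genes without library 0 of CDX2KO_BRAF and 2 without library 1, and 5 without SMAD4KO_BRAF library 0 or 1.

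Enteroendocrine genes were lower in 4 of 17 tested, with none higher and a median of -0.96. Of the 17, 4 genes (Neurog3, Neurod1, Isl1 and Insm1) entered the test through the libraries labelled SMAD4KO_BRAF alone, and 1 of the 4 calls, Neurog3, came from them. Neurog3, the factor that starts this lineage, had 0.381 and 0.0372 against 4.33, 2.09 and 3.43, with 1.95 to 2.36 in the BRAF libraries. The limma adjusted p of Neurog3, 0.00586, became 0.0629 without CDX2KO_BRAF library 1, in a range of 0.00234 to 0.288. Chga, a granule protein of mature cells, had a difference of -1.03 ± 0.36 (SE, limma adjusted p = 0.107). The list held 1 lower gene without CDX2KO_BRAF library 0 or SMAD4KO_BRAF library 2, none without CDX2KO_BRAF library 1 and 10 without SMAD4KO_BRAF library 1. Goblet cell genes were called higher in 2 of 19 tested (Clca1 and Creb3l1), with none lower and a median of 0.38. Over all genes tested 7.07% were higher, so this count gives the goblet list no clear direction. Neither was called without CDX2KO_BRAF library 0 or 1 or SMAD4KO_BRAF library 2, and the direction of the calls turned with quantile normalization, which gave none higher and 3 lower at a median of 0.23. Muc2, the main intestinal mucin, had 151 and 121 against 337, 205 and 208 (difference -0.84 ± 0.24 SE, limma adjusted p = 0.0645). Hes6, a bHLH factor of secretory precursors, had 23.3 and 24.5 against 42.5, 42.7 and 44.4, with 36.5 to 41.5 in the BRAF libraries (difference -0.83 ± 0.10 SE, limma adjusted p = 0.00341).

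Genes of the fetal and regenerating epithelium were higher in 5 of 21 tested (Clu, Ly6a, Ly6d, Ly6e and Vsig1), with none lower and a median of 1.21. Clu, the secreted chaperone clusterin that marks revival stem cells after injury, had an FPKM of 255 and 744 against 3.10, 14.2 and 2.38, with 4.60 to 11.4 in the BRAF libraries (difference 6.20 ± 0.73 SE, limma adjusted p = 0.00301). Ly6e, a GPI-anchored surface protein that interferon also induces, had 502 and 500.5 against 63.6, 52.3 and 80.4, with 50.6 to 56.8 in the BRAF libraries (difference 2.94 ± 0.18 SE, limma adjusted p = 0.000232). Ly6a, which encodes Sca-1 and belongs to the same multigene family, had 432 and 433 against 59.3, 42.5 and 20.3, while the BRAF libraries ranged from 19.5 to 160.3. For Ly6a the limma adjusted p of 0.0319 became 0.0596 and 0.0814 without SMAD4KO_BRAF libraries 1 and 2, 0.0583 without BRAF library 2 and 0.155 and 0.147 without CDX2KO_BRAF libraries 0 and 1, in a range of 0.00748 to 0.316. Anxa3 and Krt23 had differences of 3.10 ± 0.91 and 2.22 ± 0.75 (SE) and were not called. Without CDX2KO_BRAF library 1 the list held 2 higher genes.

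Among genes of crypt base stem cells, 5 of 24 tested were lower (Lgr5, Smoc2, Msi1, Pdgfa and Clca4) and 1 was higher (Igfbp4). The shares over all genes tested were 5.38% lower and 7.07% higher. The median of the list was -0.02. Pdgfa, a growth factor ligand, had an FPKM of 4.31 and 9.55 against 40.6, 40.4 and 38.5, with the BRAF libraries between at 13.2 to 23.3 (difference -2.45 ± 0.32 SE, limma adjusted p = 0.00426). Smoc2, a secreted matricellular protein of the crypt base, had 22.3 and 13.3 against 56.4, 95.0 and 88.0, with 28.4 to 40.2 in the BRAF libraries. Its limma adjusted p of 0.00572 became 0.0573 without CDX2KO_BRAF library 1, in a range of 0.00163 to 0.169. Lgr5, the receptor that defines these cells, had 3.03 and 2.44 against 5.19, 5.88 and 6.72, with 1.26 to 2.35 in the BRAF libraries, so the libraries labelled CDX2KO_BRAF were above the BRAF libraries and below those labelled SMAD4KO_BRAF. Its limma adjusted p of 0.0314 became 0.107 and 0.175 without CDX2KO_BRAF libraries 0 and 1 and 0.063 and 0.0882 without SMAD4KO_BRAF libraries 1 and 2, in a range of 0.0116 to 1. Olfm4, another stem cell gene, had 409 and 204 against 201, 409 and 399 and did not differ at the threshold (limma adjusted p = 0.877). The list held 3 lower genes without CDX2KO_BRAF library 0 and 1 without library 1.

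Both groups carry the same BRAF allele, and the genes that ERK induces were called higher in 4 of 18 tested (Dusp4, Epha2, Ier3 and Spry4) with none lower and a median of 0.50. Dusp4, a phosphatase that feeds back on ERK, had 17.0 and 17.5 against 8.74, 10.4 and 8.55, with 9.10 to 11.8 in the BRAF libraries (difference 0.84 ± 0.14 SE). Its limma adjusted p of 0.0109 became 0.0708 and 0.0871 without CDX2KO_BRAF library 0 or 1, in a range of 0.00433 to 1, and none of the list was called without either library. Dusp6, the phosphatase most specific for ERK, had 38.6 and 41.6 against 37.7, 48.5 and 37.6 (difference -0.03 ± 0.30 SE, limma adjusted p = 0.958). Etv4 and Etv5, ETS factors downstream of ERK, had differences of -0.65 and -0.13 and were not called. Cell cycle genes showed no call in 37 tested, with 2 at an unadjusted p under 0.05 and a median of 0.00. Mki67, which marks dividing cells, had 44.8 and 38.5 against 35.7, 34.6 and 36.5 (difference 0.22 ± 0.15 SE, limma adjusted p = 0.389). Genes of oxidative phosphorylation likewise showed no call in 50 tested, with 3 at an unadjusted p under 0.05 and a median of 0.02.

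**Figure D5:**
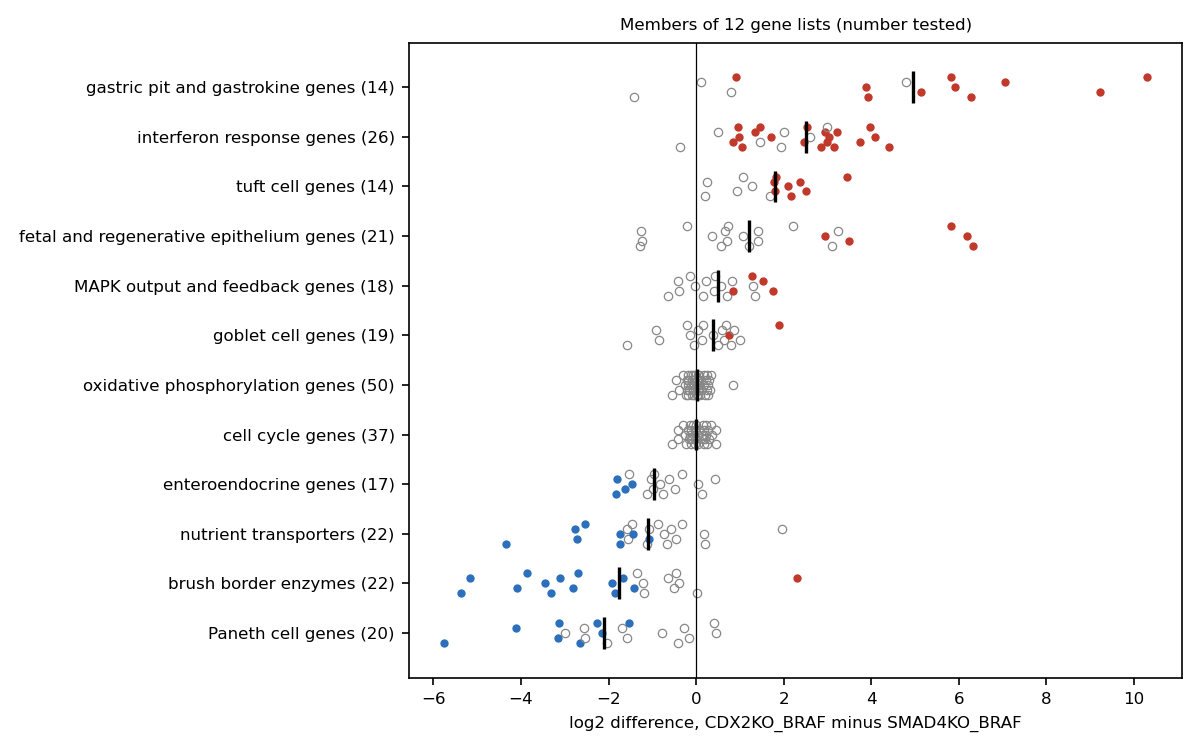
Each circle is a tested member of the named list, placed by its log2 difference (CDX2KO_BRAF minus SMAD4KO_BRAF), filled in red where called higher and in blue where called lower, with the list's median as a black bar. Medians run from 4.96 for gastric pit genes to -2.10 for Paneth cell genes, and the 37 cell cycle genes and 50 oxidative phosphorylation genes lie around 0 with no call.

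Genes of detoxification were called in both directions. Of 25 tested, 5 were higher, 8 were lower and the median was 0.04. The cytochrome Cyp2c65 had an FPKM of 176 and 187 against 47.6, 24.5 and 30.1, with 44.6 to 74.3 in the BRAF libraries (difference 2.43 ± 0.31 SE, limma adjusted p = 0.00387), and its relative Cyp2c29, whose reads it may share, had 4.55 and 5.41 against at most 0.234. Gstm1, a glutathione transferase, had 122 and 240.2 against 47.3 to 55.8 (limma adjusted p = 0.00788). The lower genes included the efflux pump Abcb1a, the carboxylesterases Ces1f, Ces2a and Ces2e and the glucuronosyltransferases Ugt1a1 and Ugt2b5. Cyp2c29 entered the test through the libraries labelled CDX2KO_BRAF alone, and Ugt2b5 through those labelled SMAD4KO_BRAF alone. The list held 2 higher and 3 lower genes without CDX2KO_BRAF library 0, and 2 and 1 without library 1. Adh6a, an alcohol dehydrogenase, had 2.08 and 2.29 against 36.0 to 91.0 (difference -4.19 ± 0.35 SE, limma adjusted p = 0.00087). Fabp5, a fatty acid carrier usual in squamous epithelia and not in enterocytes, had 103 and 79.5 against 3.69, 4.93 and 1.83, with 5.02 to 6.97 in the BRAF libraries (difference 4.42 ± 0.31 SE, limma adjusted p = 0.000472). Lcn2, an iron-scavenging lipocalin of mucosal defence, had 75.8 and 24.0 against 1.31, 1.96 and 1.87, with 1.13 to 2.33 in the BRAF libraries (difference 4.02 ± 0.45 SE, limma adjusted p = 0.00246).

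Several of the 15 largest higher differences belonged to no list of stomach genes. Lrg1, a secreted leucine-rich glycoprotein, had an FPKM of 117 and 178 against 3.33, 0.600 and 0.576, with 0.240 to 0.579 in the BRAF libraries (difference 6.04 ± 0.44 SE, limma adjusted p = 0.000547). Col18a1, a basement membrane collagen, had 40.7 and 114 against at most 0.810, and Plat, the tissue plasminogen activator, had 80.3 and 86.0 against 2.92, 1.57 and 0.667. Mal, a proteolipid of apical transport, had 24.1 and 74.2 against at most 0.222. All 4 genes were near the floor in the other 2 groups, where the highest value was 4.01 for Plat. Ly6d, a surface protein of the Ly6 family, had 906 and 1083 against 17.9, 16.5 and 4.80, while the BRAF libraries were uneven at 106, 12.7 and 17.4. The limma adjusted p of Ly6d, 0.00613, became 0.0629 without CDX2KO_BRAF library 1, in a range of 0.00184 to 0.0629.

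Genes of retinoid and carotenoid handling were called higher in 3 of 10 tested (among them Bcmo1 and Dhrs3), with none lower and a median of 0.57. The list had 1 higher gene without CDX2KO_BRAF library 0, none without library 1, and 1 without SMAD4KO_BRAF library 1 or 2 or BRAF library 2. Bcmo1, the enzyme that cleaves beta-carotene to retinal and a gene that Isx is known to repress, had an FPKM of 8.66 and 5.31 against 2.14, 1.29 and 1.21, with 1.29 to 4.02 in the BRAF libraries. The call of Bcmo1 (limma adjusted p = 0.0291) ended without CDX2KO_BRAF library 0 or 1 (0.192 and 0.0889), SMAD4KO_BRAF library 1 or 2 (0.0642 and 0.0784) or BRAF library 2 (0.0506), in a range of 0.00962 to 1. Genes of the unfolded protein and stress response showed no call in 24 tested (limma, 1 at an unadjusted p under 0.05), at a median of 0.31.

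The BRAF libraries show which group stood apart. The mean BRAF level on the log2(FPKM + 1) scale lay nearer to the libraries labelled SMAD4KO_BRAF for 757 of the 830 higher genes and 548 of the 631 lower genes, together 89.3% of the called genes, against 64.0% of all tested genes. The share is a description, since a mean of 2 libraries varies more than a mean of 3 and the fit that made the calls included the BRAF libraries in its estimate of the spread. For 73 higher and 83 lower genes the BRAF mean lay nearer to the libraries labelled CDX2KO_BRAF. All 3 BRAF libraries lay between both groups without overlap for 127 higher and 105 lower genes, among them Id3, Klf4 and Ifi44 on the higher side and Bmp3, Pdgfa and Defa3 on the lower side. At Isx, Ms4a18 and Nr1i3 the BRAF libraries were at the level of the libraries labelled SMAD4KO_BRAF, while at Sis, Treh and Dpep1 they were above both groups.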

How the data were processed

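RNA from mouse jejunal crypts was sequenced, and the authors deposited 1 table of FPKM values per gene and library, for which the submitters' processing notes list build mm9 and the tools Cuffnorm 2.2.1, Cuffdiff 2.2.1 and TopHat2 2.1.0. FPKM values hold no read counts, so a count model could not be used and absolute depth was unknown. Columns were matched to the 3 groups by the genotype in their names, numbered from 0 as in the table. The column numbers were not tied to single samples, and 3 columns that matched no sample were not used. Values were analysed as log2(FPKM + 1), with a pseudocount of 1, for genes that reached an FPKM of 1 in 2 or more of the 5 libraries compared. Differences were tested with limma 3.58.1 (R 4.3.3) with a mean-variance trend, 2-sided, in 1 fit of all 3 groups with 5 residual degrees of freedom. The Benjamini-Hochberg adjustment ran over all genes tested, the threshold was 0.05, and the script was tested on simulated data.

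Named genes were the targeted genes, the 15 largest differences in each direction among called genes with no overlap and a mean FPKM of at least 5 in the higher group, leaving out predicted genes and short RNAs, up to 4 members per list by adjusted p, and up to 5 genes in each direction with the BRAF libraries between both groups. Other list members named in the text were chosen after their values were seen. The comparison, its members and the 45 gene lists, of which 43 had tested genes, were chosen with earlier results of these data known, so lists are described by counts and medians with no test of their own. Of the listed symbols, 12 were not matched in the table. The alternatives were another pseudocount, 2 other filters, 2 rescalings, the 5 libraries alone, library weights, no trend, robust moderation, a minimum difference, a replicate block, the libraries without Y-linked expression and leaving out each of the 8 libraries in turn. Promoter windows came from a RefSeq table of build GRCm38.p6, matched by symbol, and mm9 coordinates were not used here. Some genes are not reported here.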

Additional observations from a re-analysis of the deposited data

How the results depend on the processing

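The counts of 830 higher and 631 lower genes stayed within 1.5 times under a pseudocount of 0.1, both other filters, both rescalings, the 5 libraries alone, no trend, robust moderation and the omission of Y-linked libraries. Library weights gave 1449 higher and 1090 lower genes, and a tested minimum log2 difference of 1 gave 79 and 52. Leaving out single libraries gave 118 to 838 higher and 127 to 634 lower genes, and 380 of the 1461 called genes were called without CDX2KO_BRAF library 0 and 240 without library 1. The share of higher genes among the calls was 48.2% to 62.0% over all alternatives, against 56.8%, and no alternative moved the median over all genes beyond 0.0763. A fit with the replicate number as a block (replicate block) gave 461 higher and 445 lower genes. The numbers were not treated as pairs. Same-numbered libraries of the 2 groups compared deviated from their group means with correlations across genes of -0.06 and -0.13. The deviations of the 2 libraries labelled CDX2KO_BRAF mirror each other, so these values cannot decide on pairing. Between SMAD4KO_BRAF and BRAF the same-numbered correlations were 0.304 for library 0, -0.037 for library 1 and -0.006 for library 2. Pairs of these groups with different numbers ranged from -0.390 to 0.373, the highest being SMAD4KO_BRAF library 2 with BRAF library 1. Of 182 named genes, 117 were called. Several of these, among them Tff2, Gkn2, Cldn18, Pgc and Sult1c2, missed the filter without CDX2KO_BRAF library 0 or 1. They were not tested in those 2 fits, so the fits say nothing on whether their calls hold. No called gene changed sign, and 3 genes that were not called did: H2-Eb1 was at -0.12 with library weights, Hbb-b1 at 0.0333 without CDX2KO_BRAF replicate 0, in a range of -2.13 to 0.0333 over the omitted libraries, and Cela1 at -0.02 with quantile normalization. Of 859 list medians recomputed over 43 lists, 69 moved by more than the spread between libraries. The cause of these shifts was not tested. With 2 libraries labelled CDX2KO_BRAF, the spread of that group rests on a single pair, and each fit without 1 of them takes the other to vary like the remaining groups. Absolute depth was unknown, so its part in the errors was not tested.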

Other observations

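The genes given here were chosen after their values were seen, and their limma adjusted p-values are given as a description. Core clock genes were among the called genes. Of 18 clock genes in the table, 16 were tested, 1 was higher and 5 were lower in the libraries labelled CDX2KO_BRAF. Arntl, the activator BMAL1, had an FPKM of 12.0 and 10.7 against 3.46, 5.25 and 2.57, with 5.24 to 6.10 in the BRAF libraries (limma adjusted p = 0.00953). Dbp, an output factor of the clock, had 1.01 and 1.67 against 4.24 to 12.8, and Per3, a repressor of the loop, had 0.486 and 1.41 against 5.03, 4.91 and 9.34. At all 3 genes the libraries labelled CDX2KO_BRAF stood outside the range of the other 6 libraries. The time of day of collection was not given in the sources used here.

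Ion transporters of the surface also split. Slc26a9, a chloride channel of gastric epithelium, had an FPKM of 6.36 and 14.1 against 0.321, 0.984 and 0.0499, and Slc9a4, a sodium-proton exchanger of stomach, had 5.05 and 13.8 against at most 0.176. Slc26a3, the chloride-bicarbonate exchanger of the intestine, had 8.84 and 10.3 against 97.8, 38.8 and 52.1, and Slc26a6, a related exchanger, had 17.3 and 13.5 against 102, 48.5 and 50.8. Among Wnt ligands, Wnt11 had 8.59 and 15.7 against at most 0.309, and Wnt3, a ligand made by Paneth cells, had 0.364 and 0.274 against 1.93 to 2.04.

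MHC class I genes did not share a direction. B2m, the shared light chain, had an FPKM of 1482 and 1185 against 741, 477 and 686, with a limma adjusted p of 0.0401, and H2-T23, which encodes Qa-1, had 217 and 173 against 54.4, 35.5 and 42.0 (limma adjusted p = 0.00191). H2-Q2 had 23.5 and 15.7 against 88.0, 45.0 and 53.6, with 97.6 to 173 in the BRAF libraries (limma adjusted p = 0.0306). H2-T22, H2-T9 and H2-Q8 were also called higher. H2-Q1 was called lower, as were H2-T3 and H2-Bl among the named genes. H2-K1 and H2-D1 had differences of 1.34 ± 0.52 and 0.77 ± 0.36 (SE) and were not called. These genes have close relatives whose reads may be shared, so the values of single H2 genes are uncertain.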
